A study of Mus musculus with 12 samples.

Results

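The steroid hormone genes described here are 8 of the 55535 genes with a value in both deposited tables, taken by their symbols: the receptors Nr3c1, Nr3c2, Esr1 and Pgr, the glucocorticoid target genes Fkbp5, Tsc22d3 and Zbtb16, and the estrogen target gene Greb1. Their polyadenylated RNA was read in the stromal vascular fraction (SVF), the cells left when the lipid-filled adipocytes of a fat depot are removed, from the inguinal white fat of 12 male mice of mixed C57BL6/J-129SV background kept at room temperature. Each mouse gave 1 library, and the mice formed 3 groups of 4: controls aged 2 months, controls aged 12 months and Pdgfrβ-KO mice, also aged 12 months. In the Pdgfrβ-KO model, floxed Pdgfrβ is removed by Sma-CreERT2, a recombinase made only in cells that use the smooth muscle actin promoter, so the deletion reaches some SVF cells and leaves the others intact. The control model of the study carries Sma-CreERT2 and a R26 reporter without the floxed alleles, while the labels call the control mice wild type. The Pdgfrβ-KO mice had been given tamoxifen (TMX), an estrogen receptor ligand that acts as an agonist or an antagonist depending on the tissue, followed by a washout of several days. Whether the control mice of these libraries received it is not given in the sources used here, so deletion and tamoxifen cannot be told apart in the Pdgfrβ-KO comparison.

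Steroid receptors are transcription factors that wait for a lipid-soluble ligand, in the cytoplasm in complexes with heat shock proteins or already in the nucleus, and then bind response elements in DNA. The glucocorticoid receptor (Nr3c1) and the mineralocorticoid receptor (Nr3c2) share corticosterone as a ligand, and in fat both take part in adipocyte differentiation. The estrogen receptor alpha (Esr1) is bound by estradiol and by tamoxifen, and the progesterone receptor gene (Pgr) and Greb1 are classical estrogen-induced genes in the reproductive tract and breast. The ERT2 part of the recombinase is itself a mutated ligand-binding domain of the human estrogen receptor, and its reads were not separated from those of Esr1 here.

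The values are normalized counts: the read count of a gene divided by a size factor of its library and rounded. Their totals ran from 19.62 to 21.87 M, and the counts behind them were estimated at 21.0 to 29.0 M in the 8 control libraries and 13.78 to 19.97 M in the 4 Pdgfrβ-KO libraries. By these estimates depth and genotype run together, but the 19.97 M of Pdgfrβ-KO replicate 4 is in doubt and could be 2 times that. Markers of fibroblastic progenitors, mural, endothelial and immune cells were present, and 0 of the markers in any of the 16 cell type lists were at 0 in all libraries. The summed level of 10 mature adipocyte markers, 59122 to 123674, was mostly Fabp4, a fatty acid binding protein gene that endothelial cells and macrophages also use (51647 to 113632). Adipoq, which is specific to adipocytes, had 121 to 485 and Plin1, which coats their lipid droplets, 255 to 613. The deleted gene, Pdgfrb, had 3000, 4380, 3258 and 2399 in the 12-month controls and 1882, 2145, 1707 and 1749 in the Pdgfrβ-KO mice, which did not overlap (log2 fold change -0.77 ± 0.17, SE, adjusted p = 0.0161). The 2-month controls had 2349 to 2536 of it.

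Age left the 8 genes under the threshold, and the Pdgfrβ-KO comparison moved 4 of them. Between 12-month and 2-month controls 0 of 8 passed limma at an adjusted p under 0.05, against 22.7% of 16398 genes tested, and 3 of 8 (Greb1, Pgr and Tsc22d3, all with lower means at 12 months) had an unadjusted p under 0.05. By p these ranked 4052, 5065 and 4511 among the 16398 genes, so an unadjusted p of this size was common. The 2 ages overlapped in each of the 8, while they did not overlap in 24.8% of all genes. Between Pdgfrβ-KO and 12-month controls 4 of 8 passed, against 9.41% of 16343 genes. Pgr, Fkbp5 and Tsc22d3 rose (4.95% of all genes were called higher) and Nr3c2 fell (4.46% were called lower). In these 4 genes the 2 groups of libraries did not overlap, as was so for 17.1% of all genes. Between Pdgfrβ-KO mice and 2-month controls, which differ in both age and genotype, 4 of 8 passed without overlap (Pgr and Fkbp5 higher, Nr3c1 and Nr3c2 lower), against 46.1% of genes called and 39.8% without overlap. All 8 genes passed the filter on low values in both comparisons, which asked for 4 values of at least 10. In the Pdgfrβ-KO comparison Pgr met it with its 4 Pdgfrβ-KO values, and 2 of its 4 control values reached 10, while Greb1 met it with 3 Pdgfrβ-KO values and 1 control value. Both comparisons use the same 4 libraries of 12-month controls.

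**Figure D1:**
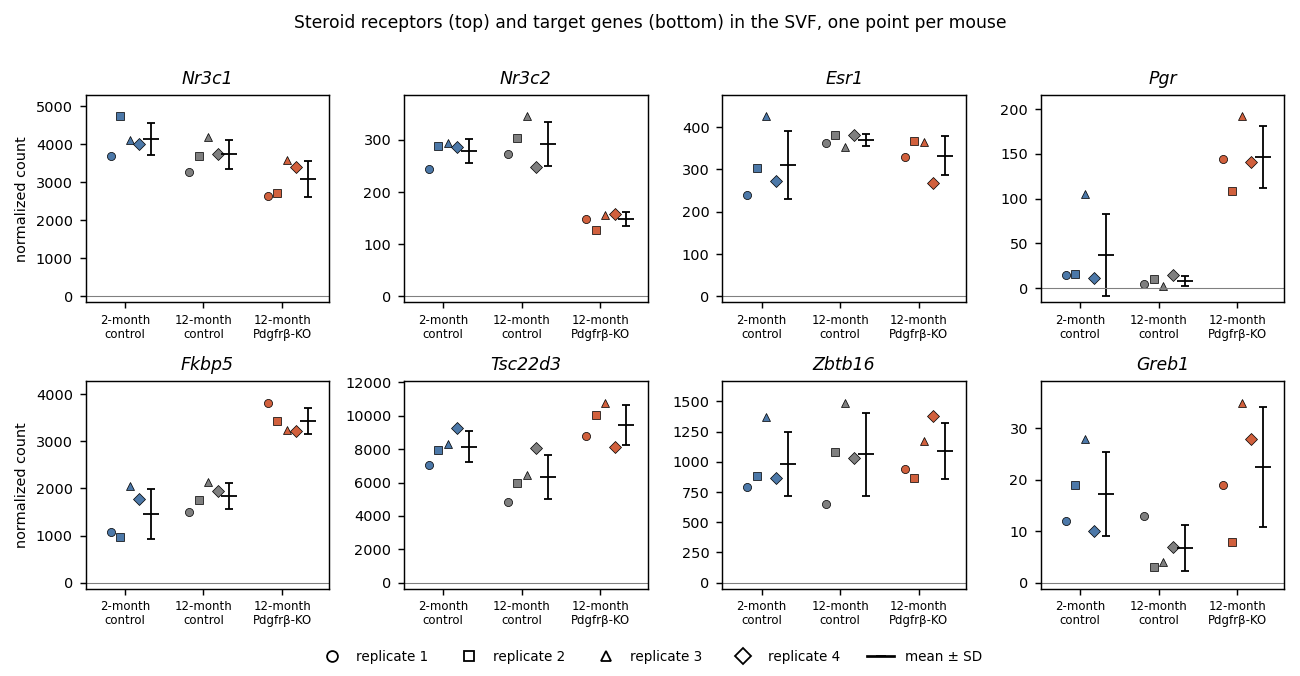
Normalized count of the 4 receptor genes (top row) and the 4 target genes (bottom row) on linear axes, with 1 point per mouse, the symbol giving the replicate number and the bar giving the mean ± SD of 4 mice. Pgr and Fkbp5 were higher and Nr3c2 lower in every Pdgfrβ-KO mouse than in any control mouse, while Nr3c1, Esr1, Zbtb16 and Greb1 overlapped between Pdgfrβ-KO and 12-month controls; the 2-month control replicate 3 stood apart for Pgr.

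Among the receptors Nr3c1 was by far the most abundant. Per kb of annotated exon, the mean normalized count of the 12 libraries was 474.9 for Nr3c1, 37.0 for Nr3c2, 24.7 for Esr1 and 7.46 for Pgr, and for the targets it was 1836 for Tsc22d3, 237.0 for Fkbp5, 197.6 for Zbtb16 and 1.62 for Greb1. These levels rest on the summed length of all annotated exons of each gene, which no single transcript uses in full. Annotated genes that overlap Nr3c2, Greb1 or Fkbp5 had at most 17 in any library, far below Nr3c2 and Fkbp5, and those that overlap Greb1 were at 0.

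Nr3c2 (ENSMUSG00000031618, chr8:76899442-77245012, plus strand, GRCm38) encodes the mineralocorticoid receptor, which binds corticosterone and aldosterone. Its normalized count was 245, 289, 295 and 286 in the 2-month controls, 273, 303, 345 and 248 in the 12-month controls and 149, 128, 156 and 158 in the Pdgfrβ-KO mice. The 8 control mice lay together, and every Pdgfrβ-KO mouse lay below all of them. Nr3c2 fell by 0.97 on the log2 scale between 12-month controls (292.2 ± 41.7, SD, n = 4) and Pdgfrβ-KO mice (147.8 ± 13.7), with a SE of 0.15 and an adjusted p of 0.0027, and it passed in all 19 alternative settings, with log2 fold changes of -1.05 to -0.86. With age its log2 fold change was 0.06 (95% confidence interval -0.21 to 0.33, adjusted p = 0.752). Against the 2-month controls the Pdgfrβ-KO value was also lower (log2 fold change -0.91, adjusted p = 0.000104). In a mixed tissue, fewer cells that make a transcript and less transcript per cell cannot be told apart. The summed level of the fibroblastic progenitor markers was 102775 to 130369 in the 12-month controls and 83585 to 92226 in the Pdgfrβ-KO mice, and 67252 to 85185 in the 2-month controls, where Nr3c2 ran from 245 to 295. Much of this sum was Dcn, with means of 50708 in the 12-month controls and 31734 in the Pdgfrβ-KO mice. Of the 12 progenitor markers 3 fell in the Pdgfrβ-KO comparison (Pi16, Dcn and Dpp4), where 4.46% of all genes were called lower, 0 rose and 9 did not pass. The means of Pdgfra, Cd34 and Ly6a were higher in the Pdgfrβ-KO mice than in the 12-month controls. The mural markers, of the lineage in which the recombinase is made, summed to 30373 to 52210 in the 12-month controls and 25493 to 32419 in the Pdgfrβ-KO mice. Of 11 of them 0 passed limma, and their median log2 fold change was -0.46. At an unadjusted p under 0.05, a level many genes passed (Nr3c1, at 0.0561, ranked 4592 of 16343), 6 of the mural markers were lower. The count of falls was 2 without 12-month control replicate 4, 1 without Pdgfrβ-KO replicate 1 or 2, and 4 with all 12 libraries in one fit. The part of progenitors and mural cells in the fall of Nr3c2 was not tested.

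Nr3c1 (ENSMUSG00000024431, chromosome 18, minus strand) encodes the glucocorticoid receptor. It had 3696, 4727, 4095 and 4015 at 2 months, 3275, 3695, 4196 and 3748 at 12 months and 2633, 2714, 3592 and 3399 in the Pdgfrβ-KO mice. The group means stepped down from 4133 ± 432 to 3728 ± 377 and 3084 ± 482 (SD, n = 4), but neighboring groups overlapped: the log2 fold change was -0.15 with age (adjusted p = 0.315) and -0.28 in the Pdgfrβ-KO comparison (95% confidence interval -0.57 to 0.01, adjusted p = 0.2). Only the ends of this order differed, with a log2 fold change of -0.43 between Pdgfrβ-KO and 2-month controls (adjusted p = 0.0106), a call that was kept in all 22 alternative settings.

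Esr1 (ENSMUSG00000019768, chr10:4611593-5005614, plus strand), the receptor that tamoxifen binds, had 239, 304, 425 and 272 at 2 months, 363, 382, 352 and 380 at 12 months and 330, 367, 364 and 268 in the Pdgfrβ-KO mice. The 12-month controls were the tightest of the groups (369.2 ± 14.3, SD, n = 4) and lay inside the range of the 2-month controls (310.0 ± 81.1). The log2 fold change was 0.28 with age (adjusted p = 0.198) and -0.16 in the Pdgfrβ-KO comparison (95% confidence interval -0.44 to 0.12, adjusted p = 0.448). The age value depended on the 2-month control replicate 3, which held the 425: without it the log2 fold change was 0.45 and the adjusted p 0.031.

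Pgr (ENSMUSG00000031870, chr9:8899833-8968611, plus strand), the progesterone receptor gene, rose more than any other of the 8 in the Pdgfrβ-KO comparison. It had 15, 16, 105 and 11 at 2 months, 5, 10, 2 and 15 at 12 months and 144, 108, 193 and 141 in the Pdgfrβ-KO mice. All control mice but one were at 16 or below, and the exception, the 2-month control replicate 3, came close to the lowest Pdgfrβ-KO mouse. The mean was 8.0 ± 5.7 in the 12-month controls and 146.5 ± 35.0 in the Pdgfrβ-KO mice (SD, n = 4), a ratio of means of 18.3. The log2 fold change was 4.27 ± 0.46 (SE), with an adjusted p of 0.000584, and it ranked 16 by size among the 16343 genes. At such low control values the fold change depends on the number added before the logarithm, and it ran from 3.63 to 4.76 over the 19 alternatives, all of which passed. The reads behind these values were estimated at 2.91 to 16.8 per library in the 12-month controls and 77.3 to 159 in the Pdgfrβ-KO libraries, where the 143.5 of replicate 4 could be 2 times that. With age the log2 fold change was -1.69 (95% confidence interval -3.17 to -0.21, adjusted p = 0.0919), and without the 2-month control replicate 3 it was -0.98 (adjusted p = 0.236). Against the 2-month controls Pgr was higher in the Pdgfrβ-KO mice (log2 fold change 2.57, adjusted p = 0.00383).

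Pgr is known from glandular epithelium, whose markers were read beside it. Their summed level was 3266 in the 2-month control replicate 3 and 580, 871 and 1403 in the other 2-month controls. In the Pdgfrβ-KO mice the same markers summed to 228 to 302, against 280 to 2214 in the 12-month controls. Cldn4 and Krt8, the 2 of 7 tested markers of this list that passed, fell in the Pdgfrβ-KO comparison (log2 fold change -3.02 and -2.58), where 4.46% of all genes were called lower. Without 12-month control replicate 1 or 2 the count was 0, without 12-month control replicate 4 or Pdgfrβ-KO replicate 1 or 3 it was 1, and without 12-month control replicate 3 it was 5. With the replicate number as a block, or with all 12 libraries in one fit, it was 6. At an unadjusted p under 0.05, a level many genes passed, 6 of the 7 were lower. The part of these cells in the level of Pgr was not tested.

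**Figure D2:**
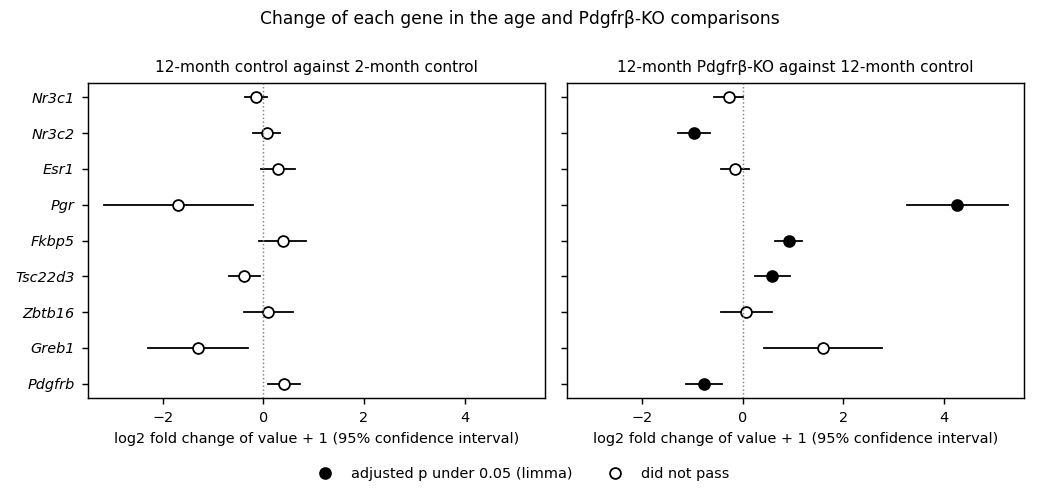
Log2 fold change of value + 1 of the 8 genes and of Pdgfrb in the age comparison (left) and the Pdgfrβ-KO comparison (right), each over 4 against 4 mice, with 95% confidence intervals from limma and filled points for an adjusted p under 0.05. All points on the left are open, and on the right Nr3c2, Pgr, Fkbp5, Tsc22d3 and Pdgfrb are filled, with Pgr at 4.27.

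Of the glucocorticoid targets, Fkbp5 (ENSMUSG00000024222, chr17:28399094-28517527, minus strand) encodes a co-chaperone that binds the glucocorticoid receptor complex and lowers its affinity for hormone. It had 1069, 971, 2052 and 1772 at 2 months, 1502, 1759, 2128 and 1953 at 12 months and 3818, 3430, 3248 and 3222 in the Pdgfrβ-KO mice. The control ages overlapped, and all Pdgfrβ-KO mice lay above all controls. Fkbp5 rose from 1836 ± 269 to 3430 ± 275 (SD, n = 4) in the Pdgfrβ-KO comparison, 1.88-fold on the scale of value + 1 (log2 fold change 0.91 ± 0.12, SE, adjusted p = 0.00158), and it passed in all 19 alternatives with log2 fold changes of 0.82 to 0.98. With age the log2 fold change was 0.39 (95% confidence interval -0.08 to 0.85, adjusted p = 0.209). The Pdgfrβ-KO value was also higher than at 2 months (log2 fold change 1.295, adjusted p = 0.0002). The 2-month controls fell into a lower pair and a higher pair for this gene.

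Tsc22d3 (ENSMUSG00000031431, chrX:140539528-140600659, minus strand) encodes GILZ, a leucine zipper protein that carries part of the anti-inflammatory action of glucocorticoids. It had 7074, 7932, 8304 and 9282 at 2 months, 4851, 5977, 6462 and 8055 at 12 months and 8779, 10028, 10785 and 8126 in the Pdgfrβ-KO mice. The 12-month controls were lowest, and the highest of them, 8055, lay just under the lowest Pdgfrβ-KO mouse, 8126. Its log2 fold change in the Pdgfrβ-KO comparison was 0.59 ± 0.16 (SE), with an adjusted p of 0.0422. This call was narrow: it was lost in 8 of 19 alternatives, among them the removal of 12-month control replicate 1, 2 or 3 (log2 fold change 0.47, 0.57 and 0.61) and of Pdgfrβ-KO replicate 1, 2 or 3 (0.62, 0.56 and 0.52), with adjusted p from 0.0786 to 0.112 in these. With age it was -0.38 (adjusted p = 0.074), which passed without the 12-month control replicate 4 (-0.50, adjusted p = 0.0197). Pdgfrβ-KO and 2-month controls were not separated (log2 fold change 0.21, 95% confidence interval -0.10 to 0.52, adjusted p = 0.256).

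Zbtb16 (ENSMUSG00000066687, chr9:48654297-48836222, minus strand) encodes PLZF, a zinc finger repressor induced by glucocorticoids in stromal cells. It had 793, 886, 1372 and 865 at 2 months, 651, 1084, 1490 and 1028 at 12 months and 941, 867, 1170 and 1379 in the Pdgfrβ-KO mice. The 3 groups covered much the same range. The log2 fold change was 0.09 with age (95% confidence interval -0.40 to 0.58) and 0.07 in the Pdgfrβ-KO comparison (-0.43 to 0.57), with adjusted p of 0.791 and 0.872.

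Greb1 (ENSMUSG00000036523, chr12:16670615-16800886, minus strand), a coactivator of Esr1 that estrogen induces, was near the limit of detection. It had 12, 19, 28 and 10 at 2 months, 13, 3, 4 and 7 at 12 months and 19, 8, 35 and 28 in the Pdgfrβ-KO mice. The mean was lowest in the 12-month controls (6.75 ± 4.5, SD, n = 4), but the groups overlapped. Its log2 fold change was -1.303 with age (adjusted p = 0.0598) and 1.598 in the Pdgfrβ-KO comparison (95% confidence interval 0.43 to 2.77, adjusted p = 0.0838). The first passed without the 12-month control replicate 1 (-1.64, adjusted p = 0.0241) and the second without the Pdgfrβ-KO replicate 2 (2.00, adjusted p = 0.0345).

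The order of group levels therefore differed between genes. For Nr3c2 both control ages stood together above Pdgfrβ-KO, and for Fkbp5 and Pgr both stood below it. Tsc22d3, Pgr and Greb1 had their lowest mean at 12 months in controls, yet in none of them was the step from 2 months past the test. For Esr1 and Zbtb16 no pair of groups was separated.

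Macrophage and neutrophil markers moved with the Pdgfrβ-KO comparison, in which 4.95% of all genes were called higher and 4.46% lower. Of 10 macrophage markers 8 rose in the Pdgfrβ-KO comparison and their summed level was 31201 to 43882 in the 12-month controls and 60669 to 106675 in the Pdgfrβ-KO mice. Of 6 neutrophil markers 5 rose, and these summed to 948 to 1459 and 1997 to 3087. The other blood cell lists differed: 0 of 8 T cell markers passed, and 1 of 6 B cell and 3 of 6 erythroid markers rose. Of the NK and innate lymphoid markers 2 of 7 fell, and of the mast cell markers 1 of 6. The counts of the B cell, erythroid and mast cell lists were 0 without some single libraries. Skeletal muscle markers fell (7 of 8), from 3033 to 7825 in the 12-month controls to 836 to 2214. With age, where 11.3% of all genes were called higher, 7 of 10 macrophage markers also rose. Their summed level at 2 months was 15521 to 22450. Fkbp5 did not pass limma with age (log2 fold change 0.39, confidence interval -0.08 to 0.85, adjusted p = 0.209), which does not show that it was unchanged. The part of these cells in the levels of Fkbp5, Tsc22d3 and Pgr was not tested.

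**Figure D3:**
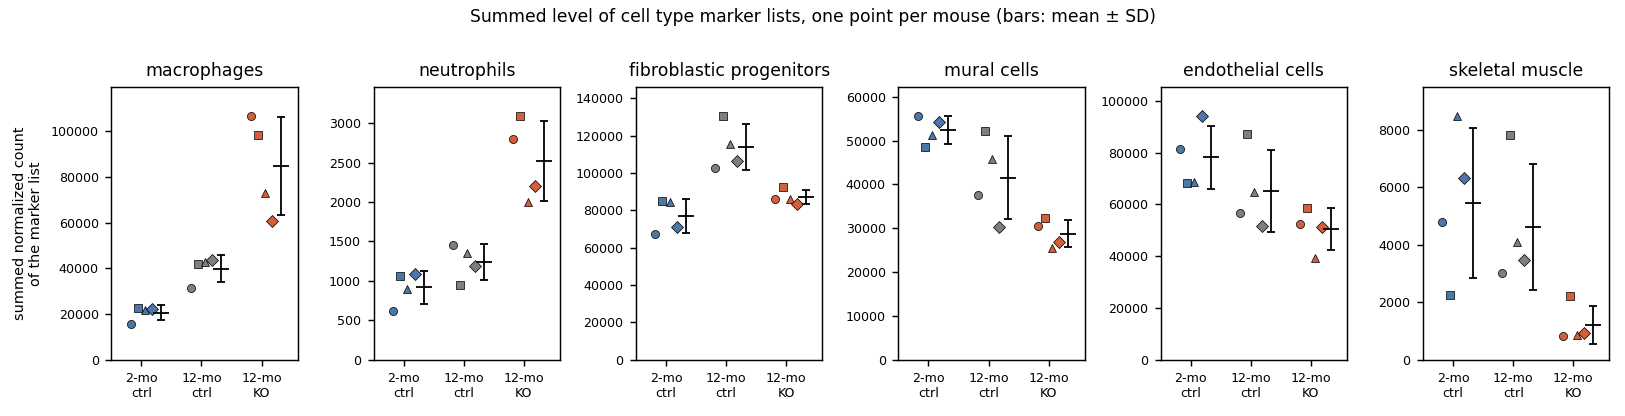
Summed normalized count of 6 cell type marker lists, with 1 point per mouse (circle, square, triangle and diamond for replicates 1 to 4) and bars for the mean ± SD of 4 mice in 2-month controls, 12-month controls and 12-month Pdgfrβ-KO mice. Macrophage and neutrophil markers were higher in every Pdgfrβ-KO mouse than in any control mouse, and skeletal muscle markers were lower in every Pdgfrβ-KO mouse than in any control mouse.

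Response elements were looked for in the 250 bases before the annotated starts of the genes, in RefSeq promoter windows of GRCm38.p6. The search covered 10 windows for 6 of the 8 genes, and no window of Zbtb16 or Nr3c1 was searched. The letters searched, on both strands, were the full glucocorticoid response element (AGAACA, any 3 bases, TGTTCT), which 0.0091% of 32851 promoters of this length held, its 6-base arm TGTTCT (16.1%), the full estrogen response element (GGTCA, any 3 bases, TGACC; 0.0639%), its 6-base arm AGGTCA (14.0%) and the GC box GGGCGG (32.7%), a site of general promoter factors. The arms lie within the full elements. The windows of the 4 genes that passed in the Pdgfrβ-KO comparison are given 5′ to 3′ along the gene, with matches in capitals (CCGCCC is the GC box on the other strand), so that the genes that rose can be set beside the one that fell.
Pgr, chr9:8899583-8899832, plus strand: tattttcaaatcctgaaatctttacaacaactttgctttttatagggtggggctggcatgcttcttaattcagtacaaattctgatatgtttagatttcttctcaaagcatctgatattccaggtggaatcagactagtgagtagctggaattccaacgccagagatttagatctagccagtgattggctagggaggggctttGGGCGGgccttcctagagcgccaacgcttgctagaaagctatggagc
Fkbp5, chr17:28486150-28486399, minus strand: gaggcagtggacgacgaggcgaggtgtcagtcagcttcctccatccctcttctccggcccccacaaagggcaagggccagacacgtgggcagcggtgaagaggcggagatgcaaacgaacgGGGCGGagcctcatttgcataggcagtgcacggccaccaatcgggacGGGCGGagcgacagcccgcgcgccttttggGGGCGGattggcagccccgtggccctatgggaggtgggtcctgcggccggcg
Tsc22d3, chrX:140600523-140600772, minus strand: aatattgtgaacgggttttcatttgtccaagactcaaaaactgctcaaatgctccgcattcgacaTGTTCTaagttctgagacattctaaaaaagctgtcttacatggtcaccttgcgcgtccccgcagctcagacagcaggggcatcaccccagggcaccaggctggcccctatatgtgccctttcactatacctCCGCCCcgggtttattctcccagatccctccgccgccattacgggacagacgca
Nr3c2, chr8:76902080-76902329, plus strand: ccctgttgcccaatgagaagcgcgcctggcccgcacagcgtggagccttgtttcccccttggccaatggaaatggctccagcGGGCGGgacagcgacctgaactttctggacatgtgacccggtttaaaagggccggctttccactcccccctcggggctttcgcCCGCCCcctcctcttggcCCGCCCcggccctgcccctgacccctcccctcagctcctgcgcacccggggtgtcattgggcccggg

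None of the 10 windows held a full glucocorticoid or estrogen response element. Fkbp5, which rose, and Nr3c2, which fell, each had 3 GC boxes, and Pgr had 1, at 47 bases before the start. Tsc22d3 had 3 windows, of which the one farthest upstream is shown. It had 1 GC box and 1 glucocorticoid arm, at 185 bases before the start, and the other 2 windows held no glucocorticoid arm and in 1 case a GC box. Greb1 had 1 estrogen arm in 1 of its windows. The windows of Esr1 held none of the letters searched. These are matches of letters in short windows, and known response elements of such genes can lie far outside them.

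The genes whose pattern over the 12 libraries was most like that of each member were named by Pearson's r of log2(value + 1) among 11179 genes, as a description, since the points share their groups and libraries. Nr3c2 was closest to Oxr1 (r = 0.989), Arhgap21 (0.983) and Kif13a (0.967), and Nr3c1 to Myo9a (0.976), Frs2 (0.971) and Slc30a4 (0.964). Fkbp5 was closest to Snrnp35 (0.957), the membrane protein gene Ms4a4a (0.956) and Slc13a3 (0.941). Of these Ms4a4a had means of 114.8, 187.2 and 763.8 in 2-month controls, 12-month controls and Pdgfrβ-KO mice. Pgr was closest to Kif5c (0.904), Cdc16 (0.886) and the mitotic spindle gene Aspm (0.874), and Tsc22d3 to Coa7 (0.929), B4galt1 (0.921) and Kpna2 (0.906). Among the genes most like Zbtb16 were Gyg (0.858) and Dpy19l4 (0.837), and Esr1 was closest to Rbms3 (0.84), Antxr1 (0.805) and Hspa9 (0.802).

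Whether the 3 glucocorticoid targets varied together among mice of the same group was asked after the group means were subtracted. Over the 12 libraries Fkbp5 and Tsc22d3 had r = 0.467 and rho = 0.49, with permutation p of 0.098 and 0.0912. Fkbp5 and Zbtb16 had r = 0.528 and rho = 0.378 (permutation p = 0.0707 and 0.256), and Tsc22d3 and Zbtb16 had r = 0.311 and rho = 0.273 (permutation p = 0.46 and 0.467). Adjusted over the 3 pairs, the permutation p values were 0.147, 0.147 and 0.46 for r and 0.274, 0.384 and 0.467 for rho, all two-sided. Without the 2 libraries farthest from the median of the gene named first, r was 0.632, 0.403 and 0.0209. No pair passed the test, which at 12 libraries does not show that the genes varied apart.

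Of 16 tested enzymes that make or remove steroids inside cells, 5 rose and 0 fell at 12 months, where 11.3% of all genes were called higher. Their median log2 fold change was 0.18 against -0.01 over all genes. Hsd11b1, which regenerates active corticosterone from its inert 11-keto form, had 627, 530, 654 and 525 at 2 months, 1470, 2031, 1609 and 1219 at 12 months and 779, 661, 851 and 838 in the Pdgfrβ-KO mice. The 12-month controls stood above all other mice. It rose with age (log2 fold change 1.42 ± 0.14, SE, adjusted p = 5.58e-05) and fell by 0.998 on the log2 scale in the Pdgfrβ-KO comparison (SE 0.15, adjusted p = 0.00293), in all 19 alternatives of each. It was the only 1 of 16 enzymes past the test in the Pdgfrβ-KO comparison, in which 0 rose and 1 did without Pdgfrβ-KO replicate 4. At an unadjusted p under 0.05, a level many genes passed (Nr3c1, at 0.0561, ranked 4592 of 16343), 4 enzymes were higher. H6pd, which supplies the cofactor of Hsd11b1, rose with age from 851.5 ± 114 to 1302 ± 218 (log2 fold change 0.61, adjusted p = 0.00687). Sult1e1, which inactivates estrogens by sulfation, had 122 to 175 at 2 months, 661 to 1234 at 12 months and 819 to 1001 in the Pdgfrβ-KO mice. It rose with age (log2 fold change 2.69, adjusted p = 2.08e-06) and its log2 fold change in the Pdgfrβ-KO comparison was 0.03 (adjusted p = 0.929). Srd5a3 and Cyp11a1 also rose with age (log2 fold change 0.61 and 0.86). Cell type markers rose in the same comparison: 7 of 12 of fibroblastic progenitors (4 without 2-month control replicate 4), 6 of 10 of mature adipocytes and 6 of 6 of mast cells. The progenitor genes Dcn and Pi16 had their highest means in the 12-month controls, as Hsd11b1 did. In 2-month controls, 12-month controls and Pdgfrβ-KO mice these were 27194, 50708 and 31734 for Dcn and 7669, 15710 and 7160 for Pi16. Pdgfra, Cd34 and Ly6a, of the same list, instead had their highest means in the Pdgfrβ-KO mice (4993, 9518 and 9524). In the Pdgfrβ-KO comparison, where 4.46% of all genes were called lower, 3 of the 12 progenitor markers fell, 0 rose and 9 did not pass. The part of these cell types in the levels of the enzymes was not tested.

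At an unadjusted p under 0.05, a level many genes passed (Nr3c1, at 0.0561, ranked 4592 of 16343), 1 of 6 tested receptors outside the 8 genes was higher and 2 were lower in the Pdgfrβ-KO comparison. Of these 6 receptors 0 passed limma at the adjusted threshold. The count was 1 lower without 12-month control replicate 4, and 1 higher without Pdgfrβ-KO replicate 3 or 4. Gper1, a membrane estrogen receptor, had 132.2 ± 54.0 in the 12-month controls and 69.5 ± 22.8 in the Pdgfrβ-KO mice (adjusted p = 0.116).

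Of 24 other glucocorticoid-induced genes tested in the Pdgfrβ-KO comparison 2 rose and 0 fell by limma, where 4.95% and 4.46% of all genes did. Of the 24, 7 were higher and 2 lower at an unadjusted p under 0.05, and the median log2 fold change was 0.00. That level was one many genes passed: Nr3c1, at a limma p of 0.0561, ranked 4592 of 16343. The genes that rose were Cd163, a scavenger receptor of macrophages, from 2779 ± 667 to 7104 ± 744 (log2 fold change 1.38, adjusted p = 0.000804), and the transcription factor gene Hif3a, from 17.2 ± 5.4 to 50.8 ± 24.9 (1.44, adjusted p = 0.0365). Cd163 passed in all 19 alternatives. Hif3a did not pass in 7 of 18, and the count was 1 without 12-month control replicate 1, 2 or 4 or Pdgfrβ-KO replicate 1 or 3. Klf15 (132.2 ± 18.5 and 187.8 ± 21.1, adjusted p = 0.0708) and Glul (adjusted p = 0.0806) did not pass. With age, where 11.3% of all genes were called higher and 11.4% lower, 3 of 23 rose and 3 fell. The rises were Cd163, Anxa1 and Mt2 (log2 fold change 1.76, 1.08 and 0.68), and of the falls Ddit4 changed most (-0.83, adjusted p = 0.000381). The count of falls was 1 without 2-month control replicate 2 or 4 or 12-month control replicate 4.

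Estrogen-induced genes were mixed. In the Pdgfrβ-KO comparison 3 of 14 rose and 1 fell, where 4.95% of all genes were called higher and 4.46% lower. Igf1, a growth factor that macrophages and stromal cells also make, had 1083, 1214, 1270 and 923 in the 12-month controls and 1907, 2356, 2557 and 1730 in the Pdgfrβ-KO mice, without overlap (log2 fold change 0.92 ± 0.15, SE, adjusted p = 0.00385). The 2-month controls had 1118, 1697, 1750 and 1624 of it. Igfbp4 and Susd3 rose by log2 fold changes of 0.68 and 0.55 and Myc fell by 0.43 on the log2 scale. The counts were 1 higher and 0 lower without 12-month control replicate 1 or 2, and 1 higher without 12-month control replicate 3. With age, where 11.3% of all genes were called higher and 11.4% lower, 3 of 14 rose and 3 fell. The rises were Ctsd, Susd3 and Igfbp4. The falls were Nrip1 (-0.63, adjusted p = 0.0186), Stc2 (-1.02, adjusted p = 0.0277) and Igf1 (-0.45, adjusted p = 0.0435). The falls numbered 0 without 2-month control replicate 3 and 1 without 2-month control replicate 4 or 12-month control replicate 1 or 4.

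Of 10 chaperones of the receptors 3 fell with age (11.4% of all genes were called lower), Dnaja1 (log2 fold change -0.61), Hsp90aa1 (-0.57) and Hsp90ab1 (-0.36), while Bag1 rose (0.36) and 6 did not pass. The rise of Bag1 was lost without 2-month control replicate 2 or 12-month control replicate 4. In the Pdgfrβ-KO comparison, where 4.46% of all genes were called lower, Hspa8 alone passed (-0.41, adjusted p = 0.0464). It no longer passed when any 1 of the 8 libraries was left out. Of 12 coregulators 9 fell with age, among them Ncoa3 (-0.42), Ep300 (-0.50) and Foxo1 (-0.32), with a median log2 fold change of -0.39. That count rested on single libraries: it was 1 without 2-month control replicate 3 or 4, 2 without 2-month control replicate 2 and 5 without 12-month control replicate 1, 2 or 4. In the Pdgfrβ-KO comparison 0 of 12 passed limma, the median was -0.34, and 1 fell without Pdgfrβ-KO replicate 3 or 4. At an unadjusted p under 0.05, a level many genes passed (Nr3c1, at 0.0561, ranked 4592 of 16343), 5 of the 12 were lower.

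**Figure D4:**
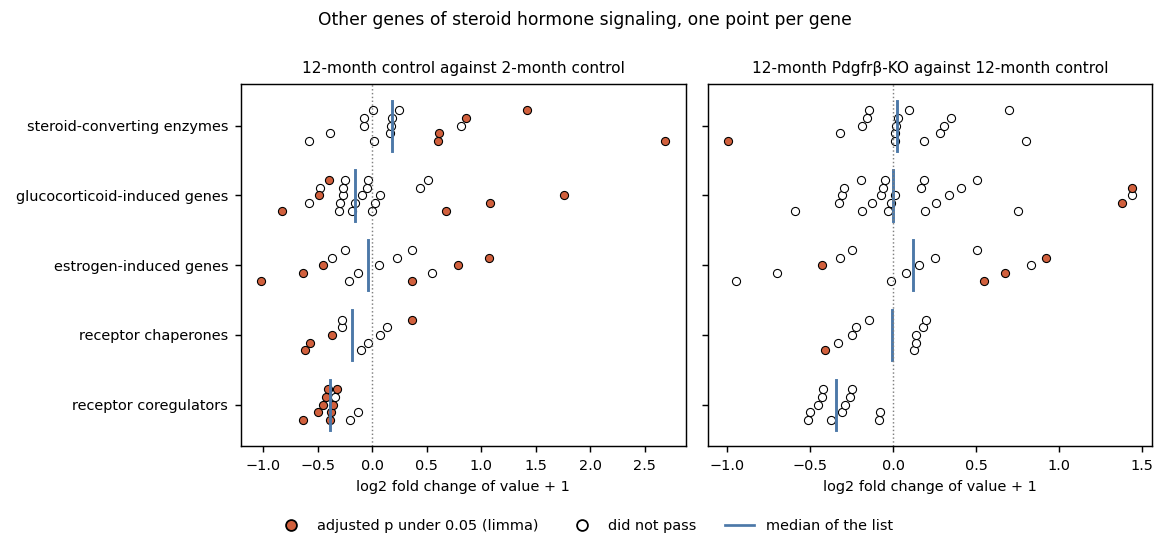
Log2 fold change of value + 1 in the age comparison (left) and the Pdgfrβ-KO comparison (right) for 5 lists of steroid hormone genes outside the 8 described, with 1 point per gene, filled for an adjusted p under 0.05, and a bar at the median of the list. The filled enzyme points lie to the right with age, Sult1e1 at 2.69 and Hsd11b1 at 1.42, and the only filled enzyme point in the Pdgfrβ-KO comparison is Hsd11b1 at -0.998.

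Many glucocorticoid targets also follow the daily rhythm, and the hour of tissue collection is not given in the sources used here. Of 16 clock genes 0 rose and 2 fell in the Pdgfrβ-KO comparison, where 4.95% of all genes were called higher and 4.46% lower. The falls were Npas2 from 171.0 ± 31.9 to 59.5 ± 18.3 (log2 fold change -1.54, adjusted p = 0.00356) and Bhlhe40 (-0.54, adjusted p = 0.0147), of which 1 remained past the test without 12-month control replicate 3. With the replicate block 4 fell. At an unadjusted p under 0.05, a level many genes passed (Nr3c1, at 0.0561, ranked 4592 of 16343), 7 of the 16 were lower and 0 higher. Their median log2 fold change was -0.26 against -0.01 over all genes. With age, where 11.3% of all genes were called higher and 11.4% lower, Hlf rose (0.87), and Ciart and Cry1 fell (-0.44 and -0.28). The rises numbered 2 without 2-month control replicate 1 or 12-month control replicate 1, and the falls 1 without 2-month control replicate 2 or 4. Their part in the levels of Fkbp5 and Tsc22d3 was not tested. Immediate early genes, which respond to cell isolation, showed 3 falls of 14 with age, Nr4a1 (-0.37), Egr2 (-0.53) and Egr3 (-0.39). These numbered 0 without 2-month control replicate 4, and rises numbered 1 and 2 without 12-month control replicates 3 and 4. In the Pdgfrβ-KO comparison 1 fell, Egr2 (-0.60, adjusted p = 0.0452), which was 0 without 12-month control replicate 1 or 3 or Pdgfrβ-KO replicate 1, 3 or 4 and 2 without Pdgfrβ-KO replicate 2; without Pdgfrβ-KO replicate 4 the rises were 1.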

How the data were processed

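RNA of inguinal SVF was sequenced from 12 mice. Per the labels and the study's methods, the authors used cutadapt through Trim Galore 0.6.0 for trimming, FastQC for quality and STAR 2.7.0e for mapping to GRCm38. The score deposited by the authors is the gene count divided by a size factor, which the authors took from DESeq2 1.26.0, rounded to whole numbers. The kit was directional, but the counting step is not given in the sources used here. Because the values are normalized, no count model was used.

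One table holds both control ages and the other holds the 12-month libraries. Of 55536 genes per table, 55535 matched by identifier, and 100% of these had equal 12-month control values in both. The tables held 0 columns of any other sample, and 4 lines with no gene and 5 empty columns were left out. Of the identifiers, 55449 were in GENCODE vM21, the source of gene coordinates (counted from 1). Counts behind each library were estimated as the deposited total times a size factor (0.63 to 1.457) read from the gaps that division and rounding leave in low values; the factor of Pdgfrβ-KO replicate 4, 1.018, could be 2 times that.

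Genes that reached 10 in 4 or more libraries of a comparison were tested by limma 3.58.1 (R 4.3.3) on log2(value + 1), using a variance trend and robust estimation, two-sided, at a Benjamini-Hochberg adjusted p under 0.05 over all genes tested. Age and Pdgfrβ-KO comparisons used their own 8 libraries, and the order of levels a fit of all 12. Adding 1 understates changes of low genes. On simulated counts the age and Pdgfrβ-KO fits found 42 and 30 of 67 planted 1.5-fold changes, 60 and 58 of 67 planted 2-fold ones and 65 and 66 of 66 planted 4-fold ones, with 10 and 7 false calls. Changes were planted only in genes above a minimum mean in the reference group (2-month controls for age, 12-month controls for Pdgfrβ-KO). Greb1 was below it in both fits and Pgr in the Pdgfrβ-KO fit, so these rates do not cover them there. Within-group relations used 100000 shuffles of libraries within groups. Alternatives were pseudocounts of 0.5 and 5, no filter, a mean of at least 50, TMM rescaling, limma without trend or robust estimation, quantile normalization, library weights, a replicate block, all 12 libraries together, each library left out, and, chosen after seeing the data, thinning to the shallowest library. Tables and plots used scipy 1.17.1, pandas 2.3.3, matplotlib 3.10.9 and numpy 2.4.6 under Python 3.11.15.

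The 8 members, 8 pathway lists (glucocorticoid-induced, estrogen-induced, other receptors, chaperones, coregulators, steroid-converting enzymes, clock, immediate early) and 16 cell type lists were chosen with earlier results of these data known, so counts over them are descriptions. Named were the members, Pdgfrb, from each list up to 4 genes past the threshold and 2 not past it with the smallest p, genes counted in groups of 5 or fewer, and the 3 genes most like each member with a mean of at least 50, among genes with a mean of at least 100. Some of the genes this rule names are not reported here. The labels number the mice of a group as biological replicates.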

Additional observations from a re-analysis of the deposited data

Results flagged for a closer look

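In groups of 4 mice, the gap of an extreme mouse to its nearest neighbor was compared with the range of the group by Dixon's 95% critical value. In all, 27 groups were examined and 2 were picked out, where chance picks about 1 in 20. Both were the 2-month control replicate 3. Its normalized count of Pgr was 105, next to 16 in the nearest mouse of its group (gap over range 0.947). Its normalized count of Zbtb16 was 1372, next to 886 (0.839). The same mouse had the highest 2-month values of Esr1 (425), Fkbp5 (2052) and Greb1 (28) and the highest summed level of glandular epithelium markers of the 12 libraries (3266), while its value of Tsc22d3 (8304) lay inside the group. Without it the log2 fold change of Pgr between Pdgfrβ-KO and 2-month controls was 3.28 (adjusted p = 0.000239).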

How the results depend on the processing

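The calls of Pgr, Fkbp5 and Nr3c2 in the Pdgfrβ-KO comparison kept their direction and their side of the threshold in all 19 alternatives, and that of Tsc22d3 did not (the alternatives without trend and robust estimation and with library weights, adjusted p = 0.0811 and 0.0701, and the 6 libraries named with it). Of 8 genes, 3 to 5 passed there. In the age comparison 0 to 1 passed when each library was left out, 1 with the replicate block and 2 after thinning to the shallowest library, which was chosen after seeing the data (Pgr and Greb1). Over all genes, leaving out each library gave 2356 to 3961 calls for age, with the lowest without 2-month control replicates 4 and 3 (2356 and 2454), and 855 to 1875 calls for Pdgfrβ-KO, with the lowest without 12-month control replicates 3, 2 and 1 (855, 884 and 894) and Pdgfrβ-KO replicate 1 (887). A fit of all 12 libraries gave 2599 calls for Pdgfrβ-KO and called Greb1 (adjusted p = 0.0453). The cause was not tested. Small log2 fold changes turned: with age, Nr3c2 had -0.015 with library weights and -0.022 (without 12-month control replicate 3) to 0.136 when a library was left out, and Zbtb16 had -0.077 and -0.089 (the same replicate) to 0.309. In the Pdgfrβ-KO comparison Zbtb16 had -0.145 (without 12-month control replicate 1) to 0.253, and -0.05 without Pdgfrβ-KO replicate 4. Pgr with age could not be fitted under a mean of at least 50, and Greb1 could not under that filter or, in the Pdgfrβ-KO comparison, without some of the libraries that carried it past the filter. Genes at low counts, such as Greb1 with a mean of 15.5 over the 12 libraries, are limited by depth. The Pdgfrβ-KO libraries were estimated to be the shallowest, with the estimate for replicate 4 in doubt.

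The replicate numbers are shared between groups. Libraries with the same number had correlations of deviations of -0.196 to 0.122 for age and -0.005 to 0.344 for Pdgfrβ-KO, with 0.344 and 0.214 for replicates 2 and 3. Whether the numbers pair the mice of the Pdgfrβ-KO comparison is not settled by these values. With the replicate number as a block, 3116 genes were called for age (3727 without it) and 2379 for Pdgfrβ-KO (1538 without it). Among them were 1 and 5 of the 8 genes, the additions being Tsc22d3 with age (adjusted p = 0.0275) and Greb1 in the Pdgfrβ-KO comparison (adjusted p = 0.0448). Of 11 mural markers 4 were then lower and 1 higher in the Pdgfrβ-KO comparison, and 5 B cell markers were higher (1 without the block).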
